A study of Mus musculus with 16 samples.

Results

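The genes described are the nuclear-encoded subunits of the mitochondrial respiratory chain and ATP synthase in luminal cells of the mouse mammary gland. They were taken by symbol, without pseudogenes. For complex I these were the symbols of Nduf followed by a, b, c, s or v and a number. The others were Sdha to Sdhd of complex II, the Uqcr genes and Cyc1 of complex III, the Cox4 to Cox8 genes of complex IV and the Atp5 genes of complex V. The rule found 79 genes of the 17097 named on the arrays: 33 of complex I, 4 of complex II, 8 of complex III, 17 of complex IV and 17 of complex V. Membership rests on symbols and no measured value. Each gene was then read by its probe set of highest mean signal, and 37 of the 79 had more than 1 to choose from. Of the 79, 78 passed the filter on low signal and were tested, and the testis isoform Cox7b2 (3.18 to 3.30 in the group means) lay below the filter of 3.67.

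The study measured RNA on 16 Affymetrix arrays, 4 in each of 4 genotypes. All 4 groups carried MMTV-Cre, in which the mouse mammary tumour virus promoter drives the Cre recombinase in mammary epithelium. The group called MMTV-Cre carried nothing else, and the group called p38a-lox also carried the lox allele of p38a (gene Mapk14), a stress-activated protein kinase. Both came from mice of 9 weeks. The group called PyMT carried MMTV-Cre and MMTV-PyMT, a transgene in which the same promoter drives the polyoma middle T oncoprotein, and the group called p38a-lox PyMT carried all 3 elements. Both came from mice of 6 weeks, so age and PyMT cannot be told apart in any comparison of mice with and without the transgene. The labels do not say whether an array is 1 animal or a pool.

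The respiratory chain sits in the inner mitochondrial membrane. Complex I takes electrons from NADH and complex II takes them from succinate; both pass them through ubiquinone to complex III, and cytochrome c carries them on to complex IV, which reduces oxygen. Complexes I, III and IV pump protons, and complex V, the ATP synthase, uses the gradient to make ATP. Most subunits are encoded in the nucleus and a small set in mitochondrial DNA, so the chain is built from both genomes. The mitochondrially encoded subunits are not analysed here.

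Values are deposited log2 signals, on which a difference of 1 is a 2-fold change, given as a difference ± its standard error. Levels are compared between arrays and never between genes. A gene was called at an adjusted p below 0.05 in limma, with Benjamini-Hochberg adjustment over all 14410 tested genes. With this number of arrays precision is limited: the standard error of a member's difference between 2 groups had a median of 0.233 and ran from 0.104 for Atp5h to 0.526 for Cox7a1.

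Facts of the whole data set bear on the results below. Array medians ran from 4.63 to 4.88 and pairwise correlations from 0.885 to 0.990. PyMT replicate 4 and p38a-lox replicate 2 had the lowest median correlation with the other arrays. All 10 luminal markers were measured, with array means from 8.73 to 10.05. Single markers varied more. In MMTV-Cre replicate 2 Foxa1 (8.77), Esr1 (10.71) and Pgr (8.21) were the highest of the group and Elf5 (7.92) and Kit (4.73) the lowest. Krt8, Krt18, Krt19 and Cd24a were also highest on that array, and Epcam was not. The part of this in the results below was not tested. The 7 basal or myoepithelial markers were measured too, and their array means were 5.83 to 7.84 in MMTV-Cre, 5.40 to 7.44 in p38a-lox, 7.45 to 8.39 in PyMT and 7.64 to 8.57 in p38a-lox PyMT. Of these markers, Trp63, Krt14, Krt5 and Mylk were called higher with PyMT in a contrast added after seeing the data, which averages both PyMT comparisons. Acta2, Cnn1 and Myh11 were not called in it. The 5 immune markers had array means of 4.18 to 4.75, 3.97 to 4.68, 4.77 to 4.89 and 4.76 to 5.02 in the same order of groups. Ptprc and Cd3e were below the filter. Cd68 was called higher in the averaged contrast, whereas Lyz2 (0.60) and Cd79a (0.12) were not called in it. More cells of a type and more RNA per cell cannot be told apart in such samples.

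Mapk14, the targeted gene, was not lower in the arrays labelled p38a-lox. It read 7.11, 7.43, 5.56 and 6.02 in the 4 MMTV-Cre arrays and 6.79, 6.37, 7.91 and 8.16 in the 4 p38a-lox arrays. In these lists both p38a-lox arrays were below both MMTV-Cre arrays among replicates 1 and 2, and above them among replicates 3 and 4. With PyMT it averaged 7.20 ± 0.321 (SD, n = 4) without and 7.23 ± 0.103 with the lox allele. The differences were 0.78 ± 0.416 without PyMT and 0.03 ± 0.416 with it, both with a limma adjusted p of 0.999. No source used here says which part of the gene the probe set reads, or whether that part is deleted. Every direction below that involves p38a-lox is therefore a statement about arrays labelled p38a-lox.

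The first question was how the 78 genes stood in each array. For each array the deviation of every gene from its own mean over the 16 arrays was taken, and the median of the 78 deviations is its summary. The MMTV-Cre arrays had medians of -0.27, 0.08, -0.11 and -0.13. The p38a-lox arrays had -0.57, -0.14, 0.11 and 0.16, the widest range of any group. The PyMT arrays had 0.17, 0.01, 0.09 and 0.21, all above 0. In p38a-lox PyMT the medians were -0.11, 0.15, 0.14 and 0.29, with replicate 1 apart from the other 3. On p38a-lox replicate 1 only 3 of the 78 genes were above their own mean, against 63 on p38a-lox replicate 4 and 69 on p38a-lox PyMT replicate 4. The groups therefore overlapped: p38a-lox replicates 3 and 4 and MMTV-Cre replicate 2 lay within the range of the PyMT arrays.

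**Figure D1:**
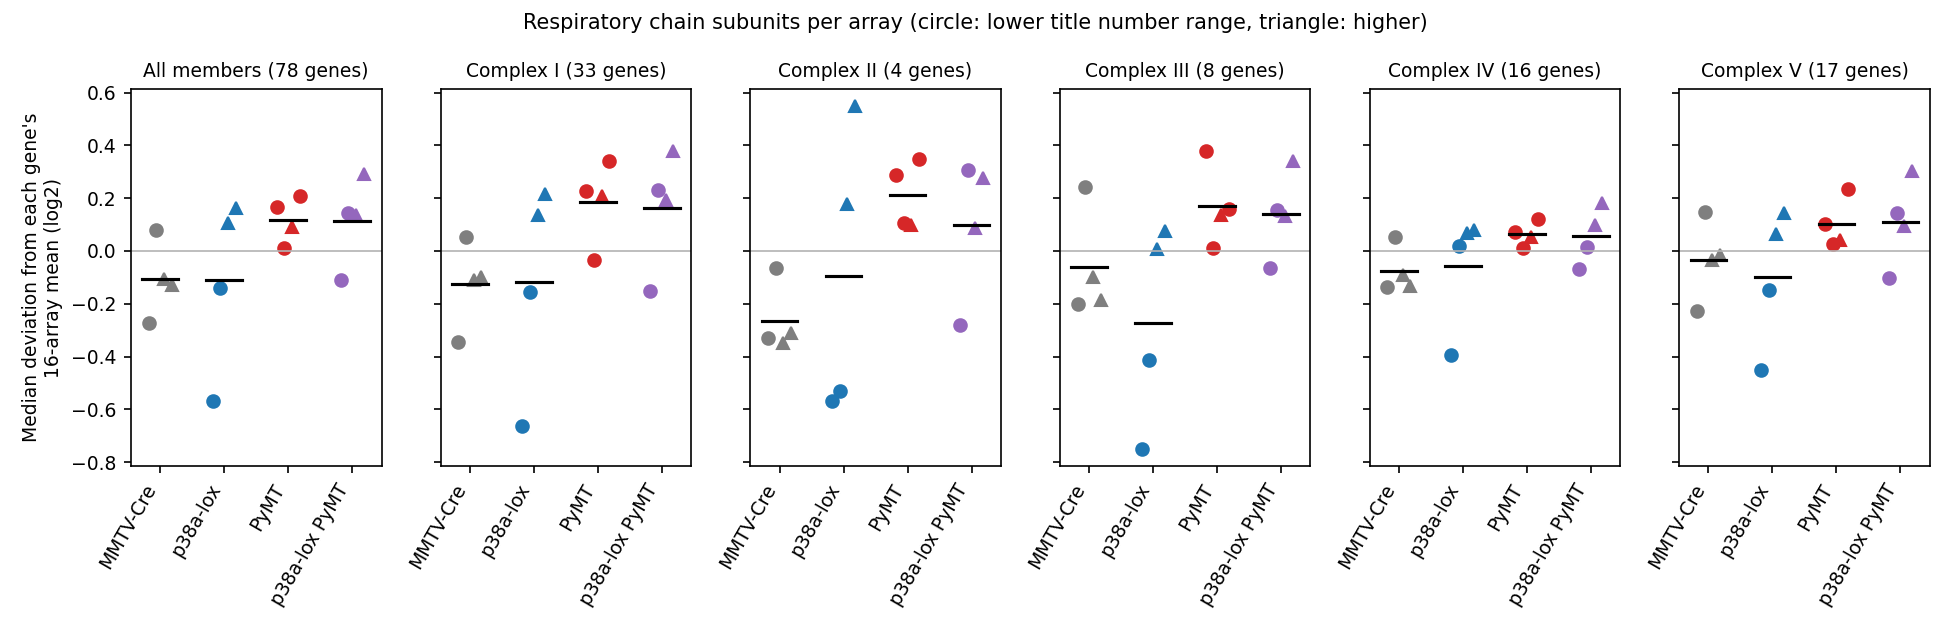
Median deviation of the respiratory chain genes from their own means (y axis, log2) in each of the 16 arrays by genotype (x axis), for all 78 tested genes and for complexes I to V apart; circles and triangles mark the lower and higher title numbers and the bar is the mean of the 4 arrays. Over all members p38a-lox replicate 1 is lowest at -0.57 and p38a-lox PyMT replicate 4 highest at 0.29.

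Genes of one complex did not always move with one another within an array. On PyMT replicate 4, the ATP synthase head subunits Atp5a1 (10.08) and Atp5b (9.70) and the complex I core subunit Ndufs1 (4.86) were low for their genes. On that same array the complex II anchor Sdhd (8.65), the complex I accessory subunit Ndufb7 (10.80) and the core subunit Ndufs7 (11.65) were high for theirs. The spread within groups had a median SD of 0.342 over the members, against 0.318 over all tested genes. It was widest for Cox7a1 (0.815) and narrowest for the peripheral stalk subunit Atp5h (0.095).

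**Figure D2:**
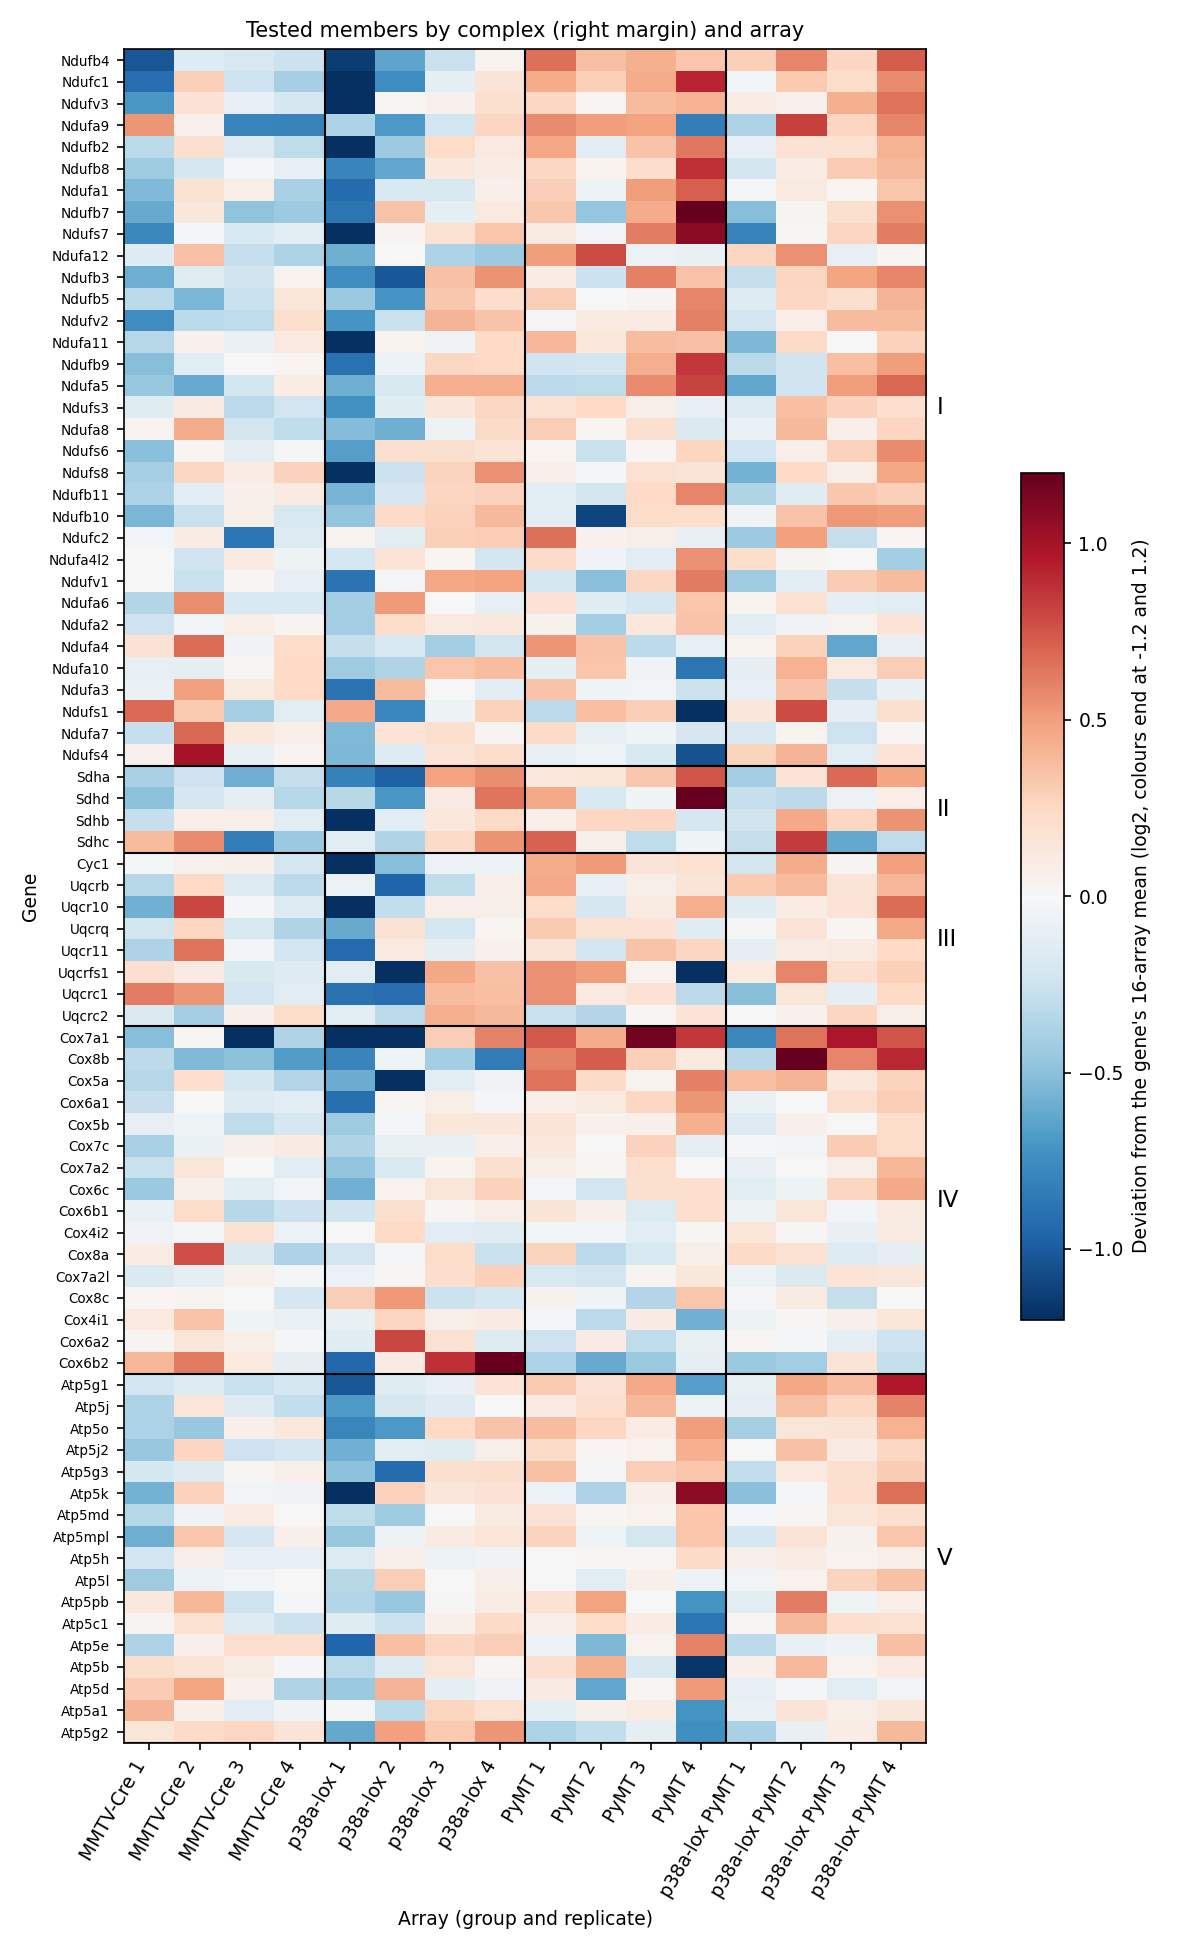
Deviation of each of the 78 tested genes (rows, ordered by complex) from its own mean over 16 arrays (columns, by genotype and replicate), in log2 units with colours ending at -1.2 and 1.2. Nearly the whole column of p38a-lox replicate 1 lies below 0, where 3 of 78 genes are above their mean, and PyMT replicate 4 holds genes well above and genes well below their means.

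The next comparisons asked how the genes differed between mice with and without PyMT. Without p38a-lox, 57 of 78 members had higher estimates in PyMT than in MMTV-Cre, with a median of 0.18 against 0.03 over all tested genes, of which 55.0% were higher. None of the 78 passed the test, where 1.26% of all tested genes did (0.881% higher and 0.382% lower). At an unadjusted p below 0.05 in limma 11 members were higher and 2 lower, against 7.78% and 5.98% of all tested genes. With p38a-lox, 64 of 78 were higher in p38a-lox PyMT than in p38a-lox, with a median of 0.22 against -0.02 and 46.5% of all tested genes higher. Again none passed, where 0.777% of all tested genes did (0.548% higher and 0.229% lower), and 9 members were higher and 0 lower at an unadjusted p below 0.05 (6.77% and 5.38% of all). These comparisons share no arrays: 50 members were above 0 in both (32% of all tested genes), 7 below 0 in both (30.5%), and 21 differed in direction.

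These shifts moved when single arrays were left out. Without p38a-lox replicate 1 the count in the comparison with p38a-lox was 46 of 78 and the median 0.06, and without p38a-lox PyMT replicate 1 they were 65 and 0.33. Without p38a-lox replicate 4 its median was also 0.33. In PyMT against MMTV-Cre the median was 0.11 without MMTV-Cre replicate 1 and 0.28 without MMTV-Cre replicate 2. The shifts also differed with the number in the sample titles, split at 2100. In p38a-lox PyMT against p38a-lox, 69 of 78 were higher in the lower range (median 0.39) and 49 in the higher (0.06). In PyMT against MMTV-Cre it was 56 (0.16) and 60 (0.24), the latter with a single PyMT array.

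A further contrast, added after seeing the data, averaged both PyMT comparisons and so set 8 arrays with PyMT against 8 without. With 4 arrays in each group its estimate does not depend on the p38a label. Here 61 of 78 members were higher, with a median of 0.20 against 0.00 over all tested genes. Arrays with lower title numbers gave 65 of 78 and a median of 0.24. Those with higher ones, with a single PyMT array, gave 56 and 0.16. Of the members 4 were called higher and 0 lower, beside 6.18% of all tested genes called, 3.67% higher and 2.51% lower. At an unadjusted p below 0.05 in limma 20 members were higher and 2 lower, against 10.8% and 8.83% of all tested genes. The 4 called were Ndufb4 and Ndufc1 of complex I and Cox5a and Cox8b of complex IV. The same 4 members had an unadjusted p below 0.05 in limma in both separate comparisons. The averaged contrast is the mean of those comparisons, so this overlap is no further support. The share of all tested genes with such p values in both is not given here. Without p38a-lox replicate 1, 54 of 78 members were higher in the averaged contrast and the median was 0.12. Of the basal markers, Trp63, Krt14, Krt5 and Mylk were called higher in the averaged contrast, as was Cd68. Acta2, Cnn1 and Myh11 were not called, nor were the immune markers Lyz2 and Cd79a, and the difference of Myh11 was 0.01. The part of these markers in the counts of members was not tested.

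**Figure D3:**
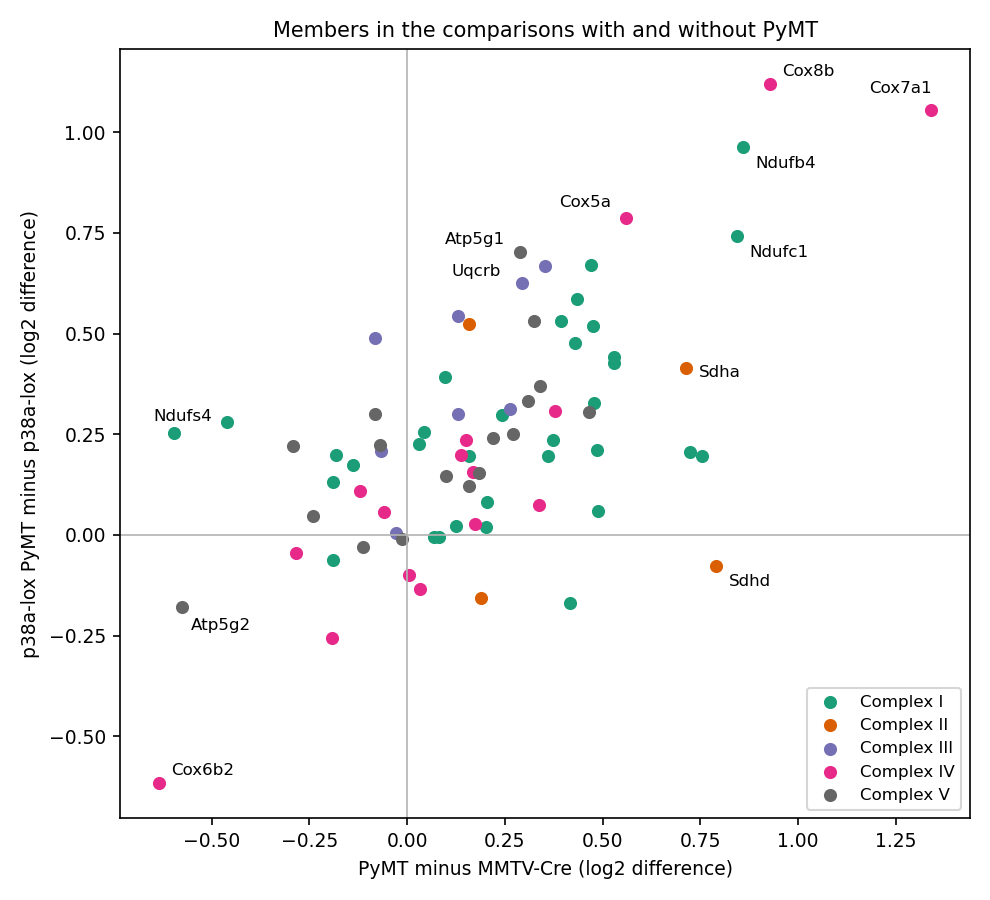
Difference between PyMT and MMTV-Cre (x axis, log2) against that between p38a-lox PyMT and p38a-lox (y axis, log2), 1 point per tested gene, coloured by complex. The upper right quadrant holds 50 of 78 genes and the lower left 7, with Cox7a1 (1.34, 1.06), Cox8b (0.93, 1.12) and Ndufb4 (0.86, 0.96) among the farthest from the origin.

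Of the 33 subunits of complex I, 27 were higher in PyMT than in MMTV-Cre (median 0.36) and 29 in p38a-lox PyMT than in p38a-lox (median 0.23). The 6 core subunits, which hold the flavin and iron-sulfur clusters, had medians of 0.18 and 0.23, with 5 and 6 of 6 above 0. The 27 accessory subunits, which surround the core, had 0.37 and 0.23, with 22 and 23 above 0. Without p38a-lox replicate 1, the second comparison had 17 of 33 above 0 and a median of 0.03.

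Ndufb4, an accessory subunit of the membrane arm, was the one member whose 8 arrays with PyMT all lay above the 8 without, where 0.666% of all tested genes were higher in that way. It read 7.80, 8.67, 8.64 and 8.58 in MMTV-Cre and 7.69, 8.21, 8.57 and 8.88 in p38a-lox. In PyMT it read 9.50, 9.20, 9.26 and 9.17, and in p38a-lox PyMT 9.12, 9.43, 9.09 and 9.56. MMTV-Cre replicate 1 and p38a-lox replicate 1 were low for their groups, and the PyMT groups were the tighter. Ndufb4 rose by 0.91 ± 0.171 in the averaged contrast (limma adjusted p = 0.0066, range over alternatives 0.000697 to 0.0206). The separate differences were 0.86 ± 0.242 (adjusted p = 0.0982, range 0.0134 to 0.257) and 0.96 ± 0.242 (0.0813, range 0.0129 to 0.244). A second probe set of the gene gave 0.68 in the averaged contrast, and another, just below the filter, 0.11.

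Ndufc1, a small accessory subunit of the same arm, read 9.50, 10.70, 10.16 and 10.02 in MMTV-Cre and 9.22, 9.67, 10.31 and 10.57 in p38a-lox. It read 10.86, 10.70, 10.87 and 11.33 in PyMT and 10.39, 10.73, 10.63 and 10.99 in p38a-lox PyMT. PyMT did not overlap MMTV-Cre, whereas the p38a-lox groups overlapped. The averaged difference was 0.79 ± 0.204 (limma adjusted p = 0.0319), with 0.82 from a second probe set, and it was called in 15 of 26 settings. It was lost without the 2 arrays that correlated least with the others (adjusted p = 0.0967) and without any of these single arrays: MMTV-Cre replicate 1, 3 or 4, p38a-lox replicate 1 or 2, PyMT replicate 1 or 4, or p38a-lox PyMT replicate 2, 3 or 4. In the opposite direction, Ndufs4, an accessory subunit of the electron-input module, had -0.60 ± 0.271 in PyMT against MMTV-Cre (adjusted p = 0.343) and 0.25 ± 0.271 with p38a-lox, and PyMT replicate 4 was its lowest value in that group at 8.36.

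Complex IV was split by kind of isoform. Of the 10 subunits present in most tissues, 8 were above 0 in either PyMT comparison (medians 0.16 and 0.13). Of the 6 tested isoforms that are restricted to certain tissues, 3 were above 0 in either (medians -0.01 and -0.04). Cox5a, a nuclear-encoded subunit on the matrix side, read 10.18, 10.73, 10.32 and 10.18 in MMTV-Cre and 9.93, 9.30, 10.40 and 10.49 in p38a-lox. It read 11.18, 10.76, 10.57 and 11.13 in PyMT and 10.89, 10.94, 10.65 and 10.80 in p38a-lox PyMT. The p38a-lox groups did not overlap, and PyMT replicate 3 lay below the highest MMTV-Cre array. Cox5a rose by 0.67 ± 0.165 in the averaged contrast (limma adjusted p = 0.0253), with 0.47 from each of its other probe sets. It lost the call, with an adjusted p of at most 0.058, when MMTV-Cre replicate 1 or 4, p38a-lox replicate 1, PyMT replicate 1 or p38a-lox PyMT replicate 2 was left out.

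Cox8b, the isoform of subunit 8 found in heart, skeletal muscle and brown fat, read 6.19, 5.98, 6.02 and 5.84 in MMTV-Cre and 5.71, 6.45, 6.10 and 5.67 in p38a-lox. It read 7.10, 7.23, 6.79 and 6.62 in PyMT and 6.17, 7.74, 7.09 and 7.41 in p38a-lox PyMT. All PyMT arrays were above all MMTV-Cre arrays, and p38a-lox PyMT replicate 1 lay within the range of p38a-lox. The averaged rise was 1.02 ± 0.196 (limma adjusted p = 0.00755, range over alternatives 0.000358 to 0.0199). The separate differences of 0.93 ± 0.278 (adjusted p = 0.121, range 0.0209 to 0.277) and 1.12 ± 0.278 (0.0778, range 0.0024 to 0.269) did not pass the test. Its ubiquitous partner Cox8a, read by a probe set that may also bind similar transcripts, had an averaged difference of 0.00 ± 0.155, and the testis isoform Cox8c -0.05 ± 0.130.

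Cox7a1, the heart and muscle isoform of subunit 7a, had the largest averaged PyMT difference of any member and the widest spread. It read 7.53, 8.06, 6.73 and 7.68 in MMTV-Cre and 6.16, 6.42, 8.34 and 8.64 in p38a-lox. It read 8.78, 8.49, 9.20 and 8.89 in PyMT and 7.28, 8.69, 9.01 and 8.80 in p38a-lox PyMT. In p38a-lox replicates 1 and 2 were low and replicates 3 and 4 high. The difference was 1.34 ± 0.526 in PyMT against MMTV-Cre (limma adjusted p = 0.253), 1.06 ± 0.526 with p38a-lox (0.45) and 1.199 ± 0.372 averaged (0.0711). Without p38a-lox replicate 1 the second was 0.65. The ubiquitous isoform Cox7a2 had 0.17 ± 0.110 and Cox7a2l, which takes part in supercomplex assembly, -0.05 ± 0.092 in the averaged contrast.

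Markers of other cell types were set beside these isoforms. The basal keratin Krt5 read 6.30, 6.67, 9.05 and 9.61 in the 4 p38a-lox arrays, with the same low and high pairs as Cox7a1. Krt14, Acta2 and Mylk were also lower in replicates 1 and 2 than in replicates 3 and 4. Trp63, Cnn1 and Myh11 did not split in this way, each with replicate 2 above replicate 3. Krt5 was called higher with PyMT in the averaged contrast, as were Trp63, Krt14 and Mylk. Cox8b did not follow those pairs in p38a-lox. The part of Krt5 in the PyMT differences of Cox7a1 and Cox8b was not tested. Cox8b and Cox7a1 are also markers of brown adipocytes, whose other listed markers are Ucp1, Cidea and Elovl3. Their array means were 4.84 to 5.36, 4.52 to 4.997, 4.67 to 5.15 and 4.64 to 4.80 in the 4 groups, Elovl3 was below the filter, and Ucp1 (0.15) and Cidea (-0.53) did not pass the test in the averaged contrast. Striated muscle markers had array means of 4.59 to 4.74, 4.49 to 4.85, 4.54 to 5.08 and 4.60 to 4.86, with Myh4 below the filter. In the averaged contrast Acta1 (0.47, limma adjusted p = 0.0802) and Mylpf (0.22) were above 0, and Ckm (-0.06) and Tnnt3 (-0.04) below. None of them passed the test. The part of muscle markers in the PyMT differences of Cox7a1 and Cox8b was not tested.

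**Figure D4:**
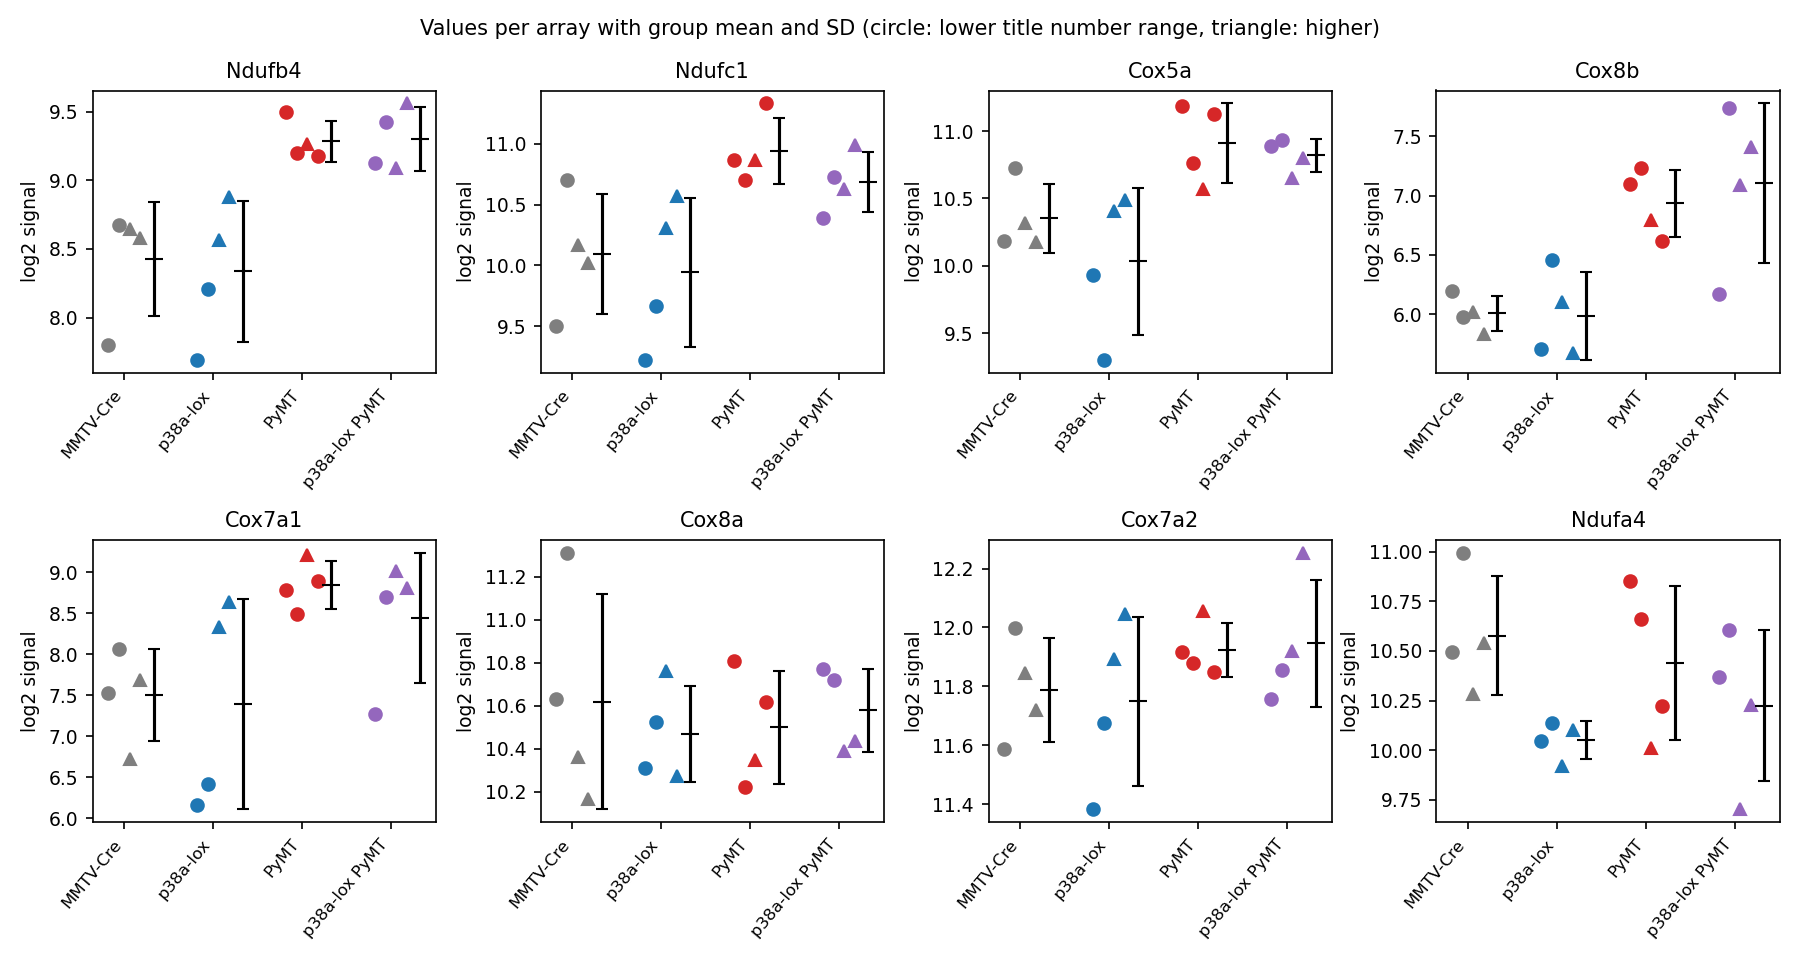
Log2 signal (y axis) of Ndufb4, Ndufc1, Cox5a, Cox8b, Cox7a1, Cox8a, Cox7a2 and Ndufa4 in each array by genotype (x axis); points are arrays and the bars give the mean and SD of 4. Ndufb4 separates all 8 PyMT arrays (9.09 to 9.56) from the others (7.69 to 8.88), and Cox7a1 shows a low and a high pair of arrays in p38a-lox.

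The promoters of the 4 genes called in the averaged contrast, and of Cox8a beside Cox8b, are shown because these are the members that passed a test, set beside the ubiquitous form of one of them. Each is the 250 bases before the start site in RefSeq (GRCm38.p6), written 5′ to 3′ on the gene's strand. Capitals mark matches, on either strand, to the motif of nuclear respiratory factor 1, an ETS motif (CCGGAAGT), an estrogen-related receptor motif (TCAAGGTCA), the YY1 motif or CCAAT. The windows are chr16:37654369-37654618 (minus strand), chr3:51408956-51409205 (minus), chr9:57520982-57521231 (plus), chr7:140900447-140900696 (minus) and chr19:7217617-7217866 (minus).
Ndufb4: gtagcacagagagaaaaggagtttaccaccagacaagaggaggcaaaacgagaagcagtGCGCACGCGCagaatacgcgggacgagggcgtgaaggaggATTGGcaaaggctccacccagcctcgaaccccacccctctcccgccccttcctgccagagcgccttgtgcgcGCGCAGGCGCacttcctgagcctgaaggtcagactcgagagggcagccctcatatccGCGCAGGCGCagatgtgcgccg
Ndufc1: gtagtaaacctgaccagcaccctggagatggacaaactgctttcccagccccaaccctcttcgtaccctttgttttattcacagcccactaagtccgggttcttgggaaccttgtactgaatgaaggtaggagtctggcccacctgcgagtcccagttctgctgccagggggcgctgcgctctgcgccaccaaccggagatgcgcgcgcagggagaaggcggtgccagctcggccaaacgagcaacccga
Cox5a: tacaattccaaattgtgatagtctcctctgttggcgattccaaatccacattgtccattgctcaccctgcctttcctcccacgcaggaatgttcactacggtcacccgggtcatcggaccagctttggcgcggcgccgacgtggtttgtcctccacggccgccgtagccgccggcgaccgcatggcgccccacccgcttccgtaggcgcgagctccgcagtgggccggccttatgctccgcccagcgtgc
Cox8b: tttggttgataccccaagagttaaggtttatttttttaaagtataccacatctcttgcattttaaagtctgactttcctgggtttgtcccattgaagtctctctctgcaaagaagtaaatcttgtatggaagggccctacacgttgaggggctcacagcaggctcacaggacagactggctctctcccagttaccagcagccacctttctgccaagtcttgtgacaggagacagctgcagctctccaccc
Cox8a: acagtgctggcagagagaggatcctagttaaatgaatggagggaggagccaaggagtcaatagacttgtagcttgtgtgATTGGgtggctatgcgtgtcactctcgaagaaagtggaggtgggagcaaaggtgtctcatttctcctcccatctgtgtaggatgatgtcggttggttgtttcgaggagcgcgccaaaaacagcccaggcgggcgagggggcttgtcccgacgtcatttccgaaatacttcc

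The Ndufb4 window held 3 matches to the nuclear respiratory factor 1 motif and 1 to CCAAT (as ATTGG), and the Cox8a window 1 to CCAAT. The Ndufc1, Cox5a and Cox8b windows held no match to any of the 5 motifs. The GC content was 47.2% for Cox8b, against 63.2% for Ndufb4 and 52.8% for Cox8a. RefSeq windows were found for 63 of the 79 genes. Of the 63, 12 (19.0%) had the nuclear respiratory factor 1 motif, against 4.23% of 27025 genes in the table and 7.32% of the 11450 tested genes with a window. The 12 were Ndufa5, Ndufa8, Ndufa11, Ndufb4, Ndufs6, Sdha, Sdhd, Cox6a1, Atp5c1, Atp5g2, Atp5h and Atp5k, which include both higher and lower estimates with PyMT. CCAAT was found in 27 (42.9%, against 37.5% of all genes and 39.2% of tested genes) and the ETS motif in 2 (3.17%, against 3.23% and 5.36%). The estrogen-related receptor motif was found in 1 (1.59%, against 0.422% and 0.332%) and the YY1 motif in 1 (1.59%, against 0.618% and 1.06%). A match describes letters in the window and no binding was measured.

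Complex II, which links the citric acid cycle to the chain, has 4 subunits, and all 4 were above 0 in PyMT against MMTV-Cre (median 0.45). Sdha, the flavoprotein that oxidises succinate, read 9.62, 9.76, 9.42 and 9.73 in MMTV-Cre and 10.14, 10.15, 10.33 and 10.76 in PyMT, without overlap. In the p38a-lox arrays it read 9.20, 9.03, 10.49 and 10.57, again a low and a high pair, and in p38a-lox PyMT 9.60, 10.17, 10.69 and 10.48. The differences with PyMT were 0.71 ± 0.330 (limma adjusted p = 0.357) and 0.41 ± 0.330 (0.697). The second was 0.15 without p38a-lox replicate 2 and turned to -0.027 with array weights. Its probe set can bind several transcripts, and a second one gave -0.14 in PyMT against MMTV-Cre, so the probe sets disagree. For the iron-sulfur subunit Sdhb the differences were 0.16 ± 0.280 and 0.52 ± 0.280. The membrane anchors had 0.19 ± 0.358 and -0.16 ± 0.358 (Sdhc) and 0.79 ± 0.363 and -0.08 ± 0.363 (Sdhd), and PyMT replicate 4 held the highest Sdhd value at 8.65.

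Complex III, which passes electrons from ubiquinol to cytochrome c, had 5 of 8 members above 0 in PyMT against MMTV-Cre (median 0.13) and 8 of 8 with p38a-lox (median 0.40, or 0.20 without p38a-lox replicate 1). Uqcrb, an accessory subunit near the quinone site, read 9.72, 8.84, 9.49 and 9.88 in p38a-lox and 10.11, 10.18, 9.95 and 10.19 in p38a-lox PyMT. These arrays did not overlap, and the difference was 0.63 ± 0.206 (limma adjusted p = 0.194). Cyc1, the cytochrome c1 heme subunit, had 0.35 ± 0.239 (0.577) and 0.67 ± 0.239 (0.241), with p38a-lox replicate 1 lowest at 8.43. Non-overlap was counted over all members as well: 10 were higher and 1 lower in PyMT against MMTV-Cre, where 4.44% and 2.65% of all tested genes were. In p38a-lox PyMT against p38a-lox 3 were higher (Cox5a, Ndufb4 and Uqcrb) and 0 lower, where 4.41% and 3.75% of all were.

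Complex V, the ATP synthase, is described by its structural parts. The 5 subunits of the catalytic head and central stalk had 0 of 5 above 0 in PyMT against MMTV-Cre (median -0.11, or 2 of 5 and -0.06 without PyMT replicate 4) and 3 of 5 with p38a-lox (median 0.05). The 4 peripheral stalk subunits had 3 and 4 of 4 above 0 (0.24 and 0.30), and the 5 small subunits of the membrane part 5 of 5 in both (0.22 and 0.24). These medians were described and not tested. The stalk subunit Atp5j, which couples the head to the membrane part, had the smallest adjusted p of complex V in the averaged contrast (0.43 ± 0.129, 0.0648).

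The 3 c-ring genes encode the same mature c subunit behind different targeting peptides, and their estimates differed in direction. Atp5g2 read 11.09, 11.19, 11.19 and 11.10 in MMTV-Cre and 10.57, 10.65, 10.83 and 10.21 in PyMT, below it without overlap. In p38a-lox it read 10.33, 11.43, 11.26 and 11.47, and in p38a-lox PyMT 10.56, 10.85, 11.03 and 11.34. With PyMT its differences were -0.58 ± 0.233 (limma adjusted p = 0.274) and -0.18 ± 0.233 (0.839). Atp5g1 had 0.29 ± 0.281 and 0.70 ± 0.281 (0.313), and Atp5g3 0.31 ± 0.223 and 0.33 ± 0.223. None of these passed the test.

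The other isoform sets of complex IV are given by their group means and differences. Cox4i1, the common form of subunit 4, averaged 11.74, 11.74, 11.45 and 11.70 in MMTV-Cre, p38a-lox, PyMT and p38a-lox PyMT, with -0.28 ± 0.151 in PyMT against MMTV-Cre (limma adjusted p = 0.445). Its lung and hypoxia form Cox4i2 averaged 5.50, 5.48, 5.44 and 5.53. Cox6a1 averaged 11.38, 11.31, 11.76 and 11.62, and its heart and muscle counterpart Cox6a2 had an averaged PyMT difference of -0.22 ± 0.128 (limma adjusted p = 0.381). Cox6b1 averaged 11.54, 11.66, 11.71 and 11.69. The testis isoform Cox6b2 had -0.64 ± 0.373 and -0.62 ± 0.373 in the PyMT comparisons and -0.63 ± 0.264 averaged (0.194). In p38a-lox it spread from 4.48 to 6.87, and the second difference was -0.26 without p38a-lox replicate 4 and -1.05 without replicate 1.

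The comparison of p38a-lox with MMTV-Cre asked how the arrays labelled p38a-lox differed without PyMT. Estimates were higher for 31 of 78 members, with a median of -0.04 against 0.00 over all tested genes. None of the members passed the test and 0% of all tested genes did. At an unadjusted p below 0.05 in limma 0 members were higher and 1 lower, against 2.32% and 2.47% of all tested genes. That member was Ndufa4, first assigned to complex I and later to complex IV, which read 10.49, 10.996, 10.28 and 10.54 in MMTV-Cre and 10.05, 10.14, 9.92 and 10.10 in p38a-lox. All p38a-lox arrays were below all MMTV-Cre arrays, which held for 1.17% of all tested genes, and the difference was -0.53 ± 0.217 (limma adjusted p = 0.984). Its relative Ndufa4l2, induced by hypoxia, averaged 5.86 and 5.85. Next by p were Cyc1 (-0.45 ± 0.239) and Ndufa3 (-0.35 ± 0.234) below 0, and Ndufc2 (0.37 ± 0.241), Cox7a2l (0.18 ± 0.130) and Ndufb10 (0.34 ± 0.275) above 0. Without p38a-lox replicate 1 Cyc1 was -0.18 and Ndufa3 -0.11, and without MMTV-Cre replicate 3 Ndufc2 was 0.16.

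The direction of this comparison turned with the number in the sample titles, whose meaning is not given. Replicates 1 and 2 of both groups have numbers below 2100 and replicates 3 and 4 above it. In the lower range 14 of 78 members were higher in p38a-lox, with a median of -0.32. In the higher range 69 of 78 were higher, with a median of 0.20. Mapk14 turned between the same arrays, with p38a-lox lower than MMTV-Cre in the lower range and higher in the other. The mean of the 7 basal markers turned too, from 6.48 in MMTV-Cre and 5.78 in p38a-lox in the lower range to 6.84 and 7.29 in the higher. Krt5 averaged 8.12 and 6.49, then 8.27 and 9.33. Cnn1 was lower in p38a-lox in both ranges, and Trp63 was higher in the first and lower in the second. The part of these values in the turn was not tested. Cox7a1 had -1.50 and 1.28, Cox6b2 -0.93 and 1.17, and Sdha -0.57 and 0.96. Ndufa4 kept its direction, with -0.65 and -0.40. Without p38a-lox replicate 1 alone, 57 of 78 members were higher and the median was 0.12.

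**Figure D5:**
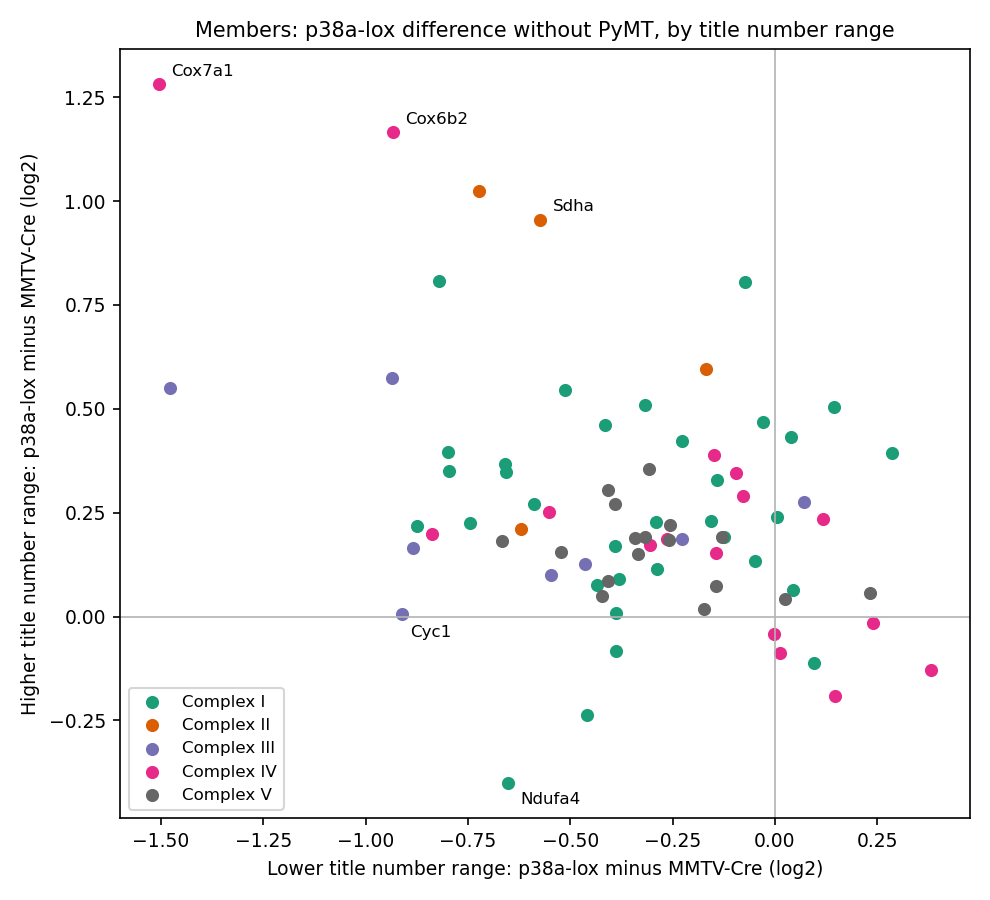
Difference between p38a-lox and MMTV-Cre (log2) for each tested gene among the arrays with lower title numbers (x axis) and among those with higher ones (y axis), 2 arrays per group in each range. Most genes lie below 0 in the lower range (median -0.32) and above 0 in the higher (median 0.20), and Ndufa4 is below 0 in both.

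The same comparison was made with PyMT present. In p38a-lox PyMT against PyMT 36 of 78 were higher, with a median of -0.01 against -0.04 over all tested genes. None of the members was called and 0% of all tested genes were. At an unadjusted p below 0.05 in limma it was 0 members in either direction, against 1.07% and 2.51% of all, and no member separated the groups (0.659% and 1.89% of all). The largest by p were Ndufb10 (0.54 ± 0.275), Ndufs4 (0.52 ± 0.271) and Atp5g2 (0.38 ± 0.233) above 0 and Sdhd (-0.65 ± 0.363), Ndufa11 (-0.32 ± 0.265) and Ndufs7 (-0.42 ± 0.372) below, all with an adjusted p of 0.999. Single arrays moved these values: Sdhd was -0.22 without PyMT replicate 4, Ndufs7 -0.15 and Ndufa11 -0.14 without p38a-lox PyMT replicate 1, Ndufb10 0.24 without PyMT replicate 2, Ndufs4 0.29 without PyMT replicate 4 and Atp5g2 0.25 without p38a-lox PyMT replicate 4. Arrays with lower title numbers gave a median of -0.07 and those with higher ones 0.07, the latter with a single PyMT array.

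The interaction asked whether the p38a-lox difference itself differed with PyMT. No member was called and 0% of all tested genes were. The median was 0.04 against -0.04, with 47 of 78 above 0; arrays with lower title numbers gave 0.21 and those with higher ones, with a single PyMT array, -0.12. All 8 members of complex III were above 0 (median 0.30), but their median was 0.64 in the lower title numbers and -0.13 in the higher. Ndufs4 had 0.85 ± 0.383, the 1 member with an unadjusted p below 0.05 (limma adjusted p = 0.992; 1.01% of all tested genes were higher and 1.8% lower at that p), followed by Atp5b (0.51 ± 0.361) and Ndufs1 (0.74 ± 0.581). Below 0 the smallest p values were those of Ndufc2 (-0.59 ± 0.341), Sdhd (-0.87 ± 0.514) and Cox5b (-0.26 ± 0.206). For Ndufs4, Atp5b, Ndufs1 and Sdhd, PyMT replicate 4 held the extreme value named above, and without it Atp5b was 0.19, Ndufs1 0.28 and Sdhd -0.43. Averaging the p38a-lox difference over both backgrounds, a contrast added after seeing the data, called 0 members and 0% of all tested genes. At an unadjusted p below 0.05 in limma 1 member was higher and 1 lower (1.89% and 3.28% of all), and no member separated the groups (0% and 0.00694% of all). They were Ndufb10 with 0.44 ± 0.194 (adjusted p = 0.964) and Ndufa4 with -0.37 ± 0.154 (0.947).

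Genes that work beside the chain were taken from further lists. In the averaged PyMT contrast 12 of 16 genes listed as complex I assembly factors were above 0 (median 0.23), 12 of 18 for complex IV (0.13) and 8 of 13 for complexes II, III and V (0.04). Protein import had 18 of 24 (0.19), the citric acid cycle 8 of 11 (0.15), metabolite exchange 7 of 9 (0.15), electron carriers and coenzyme Q synthesis 10 of 13 (0.08), the mitochondrial ribosome 43 of 73 (0.07) and regulators of biogenesis 8 of 16 (0.04). Of the 193 tested genes of these lists 7 rose, with Cycs among them, and 1 fell, which is 3.63% and 0.518% against 3.67% and 2.51% of all tested genes; the share that rose is that of the background. Ndufab1, the acyl carrier protein bound to complex I, was listed with the assembly factors because its symbol falls outside the rule for the 33 members of complex I. It rose by 0.88 ± 0.196 (limma adjusted p = 0.0162), and Suclg1, a succinyl-CoA synthetase subunit, by 1.11 ± 0.259 (0.0204). Ssbp1, which binds single-stranded mitochondrial DNA, rose by 0.93 ± 0.206 (0.0157) and Coq7, of coenzyme Q synthesis, by 0.75 ± 0.198 (0.0375). The ribosomal protein gene Mrpl17 rose by 0.82 ± 0.18 and the import gene Tomm6 by 0.40 ± 0.111, while Mrps31 fell by 0.52 (SE 0.142, adjusted p = 0.0407). Over the alternatives Ndufab1, Suclg1 and Mrpl17 were called in 26 of 26 settings, Ssbp1 in 25, Coq7 in 14, Tomm6 in 13 and Mrps31 in 12. In the lists without a call the smallest p values were those of Higd1a (0.95 ± 0.286, 0.0635) and the copper chaperone Cox17 (0.57 ± 0.206) for complex IV, Sdhaf1 (-0.79 ± 0.324) and Atpaf1 (0.53 ± 0.228) for complexes II, III and V, and the channel Vdac1 (0.25 ± 0.105) and the ADP/ATP carrier Slc25a5 (0.28 ± 0.114) for exchange.

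Cycs, somatic cytochrome c, was the one gene of all these lists called in a planned comparison, p38a-lox PyMT against p38a-lox. That is 1 of 193 tested list genes called higher (0.518%), near the 0.548% of all tested genes. Cycs read 9.75, 10.24, 10.11 and 9.72 in MMTV-Cre and 9.49, 9.14, 9.24 and 9.36 in p38a-lox. It read 10.18, 10.68, 9.94 and 9.89 in PyMT and 10.38, 10.63, 10.03 and 10.54 in p38a-lox PyMT. The p38a-lox arrays were the lowest 4 of the 16, and MMTV-Cre and p38a-lox PyMT each lay above them without overlap. Cycs rose by 1.09 ± 0.191 in p38a-lox PyMT against p38a-lox (limma adjusted p = 0.0173, range over alternatives 0.000363 to 0.0788), a call lost without p38a-lox replicate 3 or without p38a-lox PyMT replicate 2 or 4. The averaged rise was 0.65 ± 0.135 (0.0117). In p38a-lox against MMTV-Cre its difference was -0.65 ± 0.191 (limma adjusted p = 0.727), and the interaction was 0.87 ± 0.270 (0.992), so neither passed the test.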

How the data were processed

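The values are the log2 signals that the authors deposited, with RMA as the tool named in the submitters' processing notes and no version or settings stated. RMA quantile-normalises arrays, so differences in total RNA cannot be seen. Of 45141 probe sets, 28898 carried 1 gene symbol (551 several, 15692 unnamed here), and 28689 of these matched RefSeq (GRCm38.p6). Each gene is the single-symbol probe set of highest mean signal; of the members' probe sets, 6 end in _x_at and 8 in _s_at and can bind several transcripts. Genes below the 25th percentile of all probe sets were not tested.

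One linear model over 16 arrays in 4 groups was fitted with limma 3.58.1 in R 4.3.3 (12 residual and 2.83 prior degrees of freedom), with 5 planned contrasts and 2 averaged ones added after seeing the data. It was tested on simulated data. The labels do not state separate animals, so p-values measure the spread between these samples. Arrays were grouped by the genotype label, and 0 pairs of arrays were identical. Figures used Python 3.11.15 with pandas 2.3.3 and matplotlib 3.10.9.

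The members and lists were chosen with earlier results of these data known. Genes named were every member called, the 3 members with the smallest p in each direction, complex II, isoform sets, called genes of the further lists, and Mapk14. Members with extreme values on PyMT replicate 4, the non-overlapping members, and Cyc1, Uqcrb and Atp5j in the PyMT contrasts were chosen after their values were seen. Alternatives were another filter, another probe set choice, array weights, a title-number term, median centring and leaving out arrays.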

Additional observations from a re-analysis of the deposited data

Results flagged for a closer look

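Of 176 sets of 4 arrays examined, 10 had 1 array farther from the other 3 than Dixon's ratio test allows at its 95% level. Chance gives about 1 in 20 such sets, so a number of this size can arise without any cause.

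Without PyMT, the MMTV-Cre group held an array far below the others for Ndufb4 (replicate 1, 7.80) and for the ATP synthase subunit Atp5l (replicate 1, 10.72). In the same group the array far above the others was replicate 2 for Ndufs4 (10.41) and for the median deviation of complex II (-0.066). In p38a-lox, replicate 1 was far below the others for Cox6a1 (10.61) and for the median deviation of complex IV (-0.39). With PyMT, replicate 2 was the low array for Atp5g3 (11.15) and Ndufa11 (9.74) and replicate 4 for Ndufs4 (8.36). In p38a-lox PyMT, replicate 2 was the high array for Atp5b (11.25).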

How the results depend on the processing

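The median difference of the members changed by less than the spread between replicates (SD 0.204) in 191 recomputations and by more in 2. This limit is close in size to the medians of the PyMT comparisons, so it does not show that they were stable. Changes of direction fell within it, as in the interaction, which ran from -0.12 to 0.21. The 2 that moved more were both p38a-lox against MMTV-Cre, within the lower (-0.32) and higher (0.20) title numbers. Leaving out 1 array at a time gave medians of -0.14 to 0.12 there, -0.07 to 0.07 in p38a-lox PyMT against PyMT, -0.10 to 0.13 in the interaction, 0.11 to 0.28 in PyMT against MMTV-Cre, 0.06 to 0.33 in p38a-lox PyMT against p38a-lox and 0.12 to 0.25 averaged over both PyMT comparisons. Array weights gave 4 members called in PyMT against MMTV-Cre (Cox5a, Cox8b, Ndufb4 and Ndufc1, all higher, where 8.8% of all tested genes were called, 5.34% higher). They gave 7 in p38a-lox PyMT against p38a-lox (6 higher and Cox6b2 lower, where 9.83% of all were, 4.5% higher and 5.32% lower). In the averaged contrast they gave 16 (14 higher, Atp5g2 and Cox6b2 lower, where 18.3% of all were, 10.1% higher and 8.25% lower). A title-number term gave 7 there, all higher, where 7.36% of all were called, 4.47% higher. Leaving out 1 array gave 0 to 1, 0 to 1 and 2 to 8 called in these contrasts. The 1 was Cox8b without p38a-lox PyMT replicate 1 in either comparison and Ndufb4 without p38a-lox replicate 4 in the second. In the averaged contrast 2 remained, Cox8b and Ndufb4, without MMTV-Cre replicate 1 or 4, PyMT replicate 1 or p38a-lox PyMT replicate 2, and 8 were called without MMTV-Cre replicate 2. Ndufb4 and Cox8b were called there in 26 of 26 settings. With all 16 arrays these contrasts called 1.26%, 0.777% and 6.18% of all tested genes. The shares in the fits without 1 array are not given here, so those counts of members are not set against a background. The estimate of Sdha in p38a-lox PyMT against p38a-lox reversed with array weights (0.41 to -0.027). The cause of these changes was not tested. Other results for single genes were the same in 1452 recomputations, gained the call in 19 and lost it in 59. No paired analysis was possible because the labels give no replicate numbers shared between groups.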
